A study of Mus musculus with 10 samples.

Results

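Genes for receptors that take up antibody-coated material, dying cells and lipid, and for their partners, were followed across the hippocampus of mice with subarachnoid hemorrhage (SAH) and their controls. They were picked by gene name: Fcgr1, Fcgr2b, Fcgr3, Fcgr4, Fcer1g, Mertk, Gas6, Pros1, Cd36 and Msr1, 10 of the 24391 gene names in the count tables. All 10 had counts in every mouse. The rule that picks them uses gene names alone.

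RNA was sequenced from the whole hippocampus of both hemispheres of male C56BL/6J mice (the strain name as the study's methods spell it), 10 to 14 weeks old, 4 days after surgery, with 1 library per mouse. In SAH mice (n = 4) a filament in the artery perforated the circle of Willis on 1 side, and SAH mice were kept only if cerebral blood flow had dropped by at least 50%. In Sham mice (n = 3) the filament went up to the point of resistance without a puncture, and Naive mice (n = 3) were not operated on. The operations were done under isoflurane. Sham and Naive mice together form the control (n = 6). Mice are called by the numbers of their labels: SAH mouse 1 to 4, Sham mouse 5 to 7 and Naive mouse 8 to 10.

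Fcγ receptors bind the constant part of IgG and link antibodies to phagocytes, in the brain mainly microglia and the macrophages at its borders. Fcgr1, Fcgr3 and Fcgr4 encode activating receptors that signal through the common γ chain, encoded by Fcer1g, while Fcgr2b encodes the inhibitory receptor, which dampens the same cells. Mertk encodes a receptor tyrosine kinase of the TAM family that microglia and astrocytes use to engulf dying cells and synapses, and the secreted proteins Gas6 and Pros1 (protein S, also an anticoagulant) bridge it to phosphatidylserine on the target. Cd36 and Msr1 encode scavenger receptors for oxidized lipoprotein and other ligands, and Cd36 also takes up fatty acids.

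Libraries held between 19743388 and 27254655 counts, with 20099076 to 26866167 in SAH, 24080219 to 27254655 in Sham and 19743388 to 26551775 in Naive mice, and no pair was alike enough to be 1 library. The summed level of 9 hippocampal neuron markers overlapped between the groups, with 3350 to 3620 CPM in SAH (CPM being counts scaled to a common library size with TMM factors) and 3260 to 3540 CPM in control mice. Markers of choroid plexus epithelium stood apart in 3 mice. They summed to 1225 CPM in SAH mouse 3, 862 CPM in SAH mouse 4 and 827 CPM in Sham mouse 7, and to 44.2 to 215 CPM in the others.

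Each difference was tested with edgeR's quasi-likelihood test over all genes that passed a filter on low counts, with p-values adjusted by the Benjamini-Hochberg method, and called at an adjusted p under 0.10. SE stands for the standard error of the log2 ratio of 2 groups. In SAH against control, 8 of the 10 genes passed the filter and 4 rose (Fcgr2b, Fcgr3, Pros1 and Fcgr1), while 0 fell. Of all 14993 genes tested, 3.13% were called higher. The median log2 fold change of the 8 genes was 0.50, and that of all genes tested was -0.0024. In 3 genes (Fcgr2b, Fcgr3 and Pros1) the SAH mice all exceeded the highest control mouse, which held for 2.83% of all genes tested. Fcgr4 and Msr1 did not pass the filter and have no value in that test. In whole tissue, fewer or more cells of a type and less or more RNA per cell cannot be told apart.

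**Figure D1:**
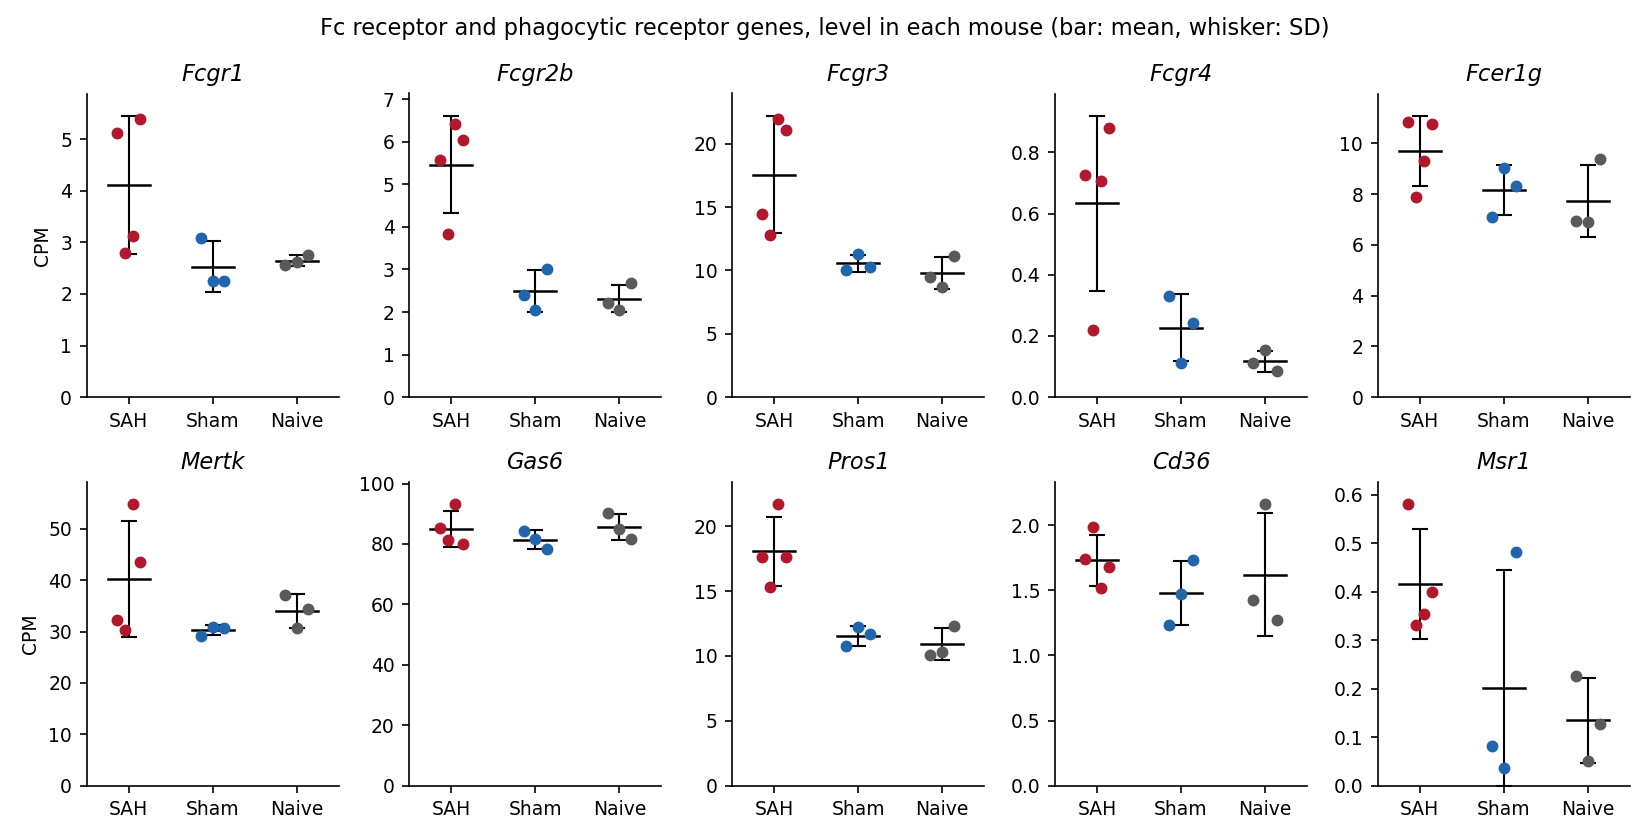
Level of each of the 10 genes in CPM (vertical axes, from 0) in each mouse, by group (SAH n = 4, Sham n = 3, Naive n = 3); points are mice, bars are means and whiskers are SDs, cut at 0 where they would pass below it. In Fcgr2b, Fcgr3 and Pros1 all SAH mice lie above all control mice, while in Gas6 and Cd36 the groups overlap.

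Shared and regulatory sequence bears on how these genes can be read. Fcgr2b and Fcgr3 are close relatives, and their exons share a run of 129 bases inside the coding sequence of both, shown here in capitals with 20 bases of exon on each side in lower case, 5′ to 3′ in the direction of the gene. The run crosses from the third to the fourth exon of both genes, at chr1:172896805-172898212 in Fcgr2b and chr1:172984298-172987923 in Fcgr3 (mm9, minus strand, intron included).
Fcgr2b: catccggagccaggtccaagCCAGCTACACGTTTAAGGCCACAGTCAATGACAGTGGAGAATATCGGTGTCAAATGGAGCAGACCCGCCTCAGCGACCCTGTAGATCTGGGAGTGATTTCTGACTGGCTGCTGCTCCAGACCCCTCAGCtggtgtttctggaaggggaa
Fcgr3: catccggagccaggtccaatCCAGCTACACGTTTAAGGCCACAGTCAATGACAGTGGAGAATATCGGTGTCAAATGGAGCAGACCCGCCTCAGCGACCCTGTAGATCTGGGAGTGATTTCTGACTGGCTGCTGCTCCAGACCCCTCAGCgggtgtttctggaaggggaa

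Of all stretches of 50 bases, the read length, in the exons of Fcgr2b, 166 (11.1%) also lie in Fcgr3, which is 12.7% of the stretches of Fcgr3. A read pair that lies wholly within them aligns to both genes and was discarded by the authors' counting, so the counts of both genes rest on the rest of their exons. None of the other 8 genes shared a stretch of 50 bases with another member, and no exon of the 10 genes overlapped an exon of another gene. The longest run that Fcgr4 shared with Fcgr2b was 13 bases and with Fcgr3 14 bases.

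The 150 bases before the annotated start site are printed for the 4 genes that rose and for Fcgr4, to show where 3 short motifs lie (mm9, 5′ to 3′ in the direction of the gene, motifs in capitals).
Fcgr1, chr3:96097893-96098042, minus strand: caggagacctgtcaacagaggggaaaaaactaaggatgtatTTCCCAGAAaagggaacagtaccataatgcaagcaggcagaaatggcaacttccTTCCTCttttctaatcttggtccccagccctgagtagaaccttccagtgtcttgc
Fcgr2b, chr1:172906203-172906352, minus strand: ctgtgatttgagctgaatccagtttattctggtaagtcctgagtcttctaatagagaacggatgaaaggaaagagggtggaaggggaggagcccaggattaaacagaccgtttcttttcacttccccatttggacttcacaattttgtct
Fcgr3, chr1:172989535-172989684, minus strand: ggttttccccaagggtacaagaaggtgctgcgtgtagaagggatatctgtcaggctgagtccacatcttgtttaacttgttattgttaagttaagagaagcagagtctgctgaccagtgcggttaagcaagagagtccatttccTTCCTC
Fcgr4, chr1:172948907-172949056, plus strand: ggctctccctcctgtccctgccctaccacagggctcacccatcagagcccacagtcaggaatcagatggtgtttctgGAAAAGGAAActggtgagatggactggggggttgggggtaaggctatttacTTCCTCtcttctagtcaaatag
Pros1, chr16:62854010-62854159, plus strand: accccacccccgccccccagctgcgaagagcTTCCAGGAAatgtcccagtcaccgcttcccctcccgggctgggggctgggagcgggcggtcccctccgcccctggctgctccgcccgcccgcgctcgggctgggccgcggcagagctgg

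The motifs were searched on both strands from 250 bases before to 50 bases after the start. GAGGAA, a core bound by PU.1, the transcription factor of myeloid cells, lay in 4 of the 10 promoters (as TTCCTC, starting at -55 in Fcgr1, -6 in Fcgr3, -22 in Fcgr4 and -67 in Cd36), and in 27.4% of all 24271 promoters. TTCNNNGAA, the form of site bound by STAT factors, lay in 3 (-109 in Fcgr1, -119 in Pros1 and -84 in Msr1) and in 8.04% of all promoters. GAAA, NN and GAAA in a row, the core of an interferon response element, lay in Fcgr4 at -73 and in 3.54% of all promoters. The matches in these genes did not overlap each other, and the window of Fcgr2b held none of the 3. A match is a run of letters and not a measured binding site.

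Fcgr2b, the inhibitory IgG receptor, had the largest log2 fold change of the 8 tested genes. Its level was 5.56, 3.83, 6.42 and 6.04 CPM in SAH mice 1 to 4, 2.39, 2.06 and 3.02 CPM in Sham mice 5 to 7 and 2.22, 2.06 and 2.67 CPM in Naive mice 8 to 10. The lowest SAH mouse, mouse 2, still exceeded the highest control mouse, Sham mouse 7. SAH mice had a mean of 5.46 ± 1.14 CPM (SD, n = 4), and control mice one of 2.40 ± 0.38 CPM (SD, n = 6). This is a log2 fold change of 1.17 (SE 0.16, adjusted p = 0.00272 from edgeR). It was called higher in all 19 alternative settings of this comparison, with log2 fold changes between 0.97 and 1.32.

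Fcgr3, the activating low-affinity receptor, rose as well. SAH mice 1 to 4 had 14.5, 12.8, 21.9 and 21.1 CPM, Sham mice 5 to 7 had 10.1, 11.3 and 10.3 CPM, and Naive mice 8 to 10 had 9.52, 8.69 and 11.2 CPM. All SAH mice were above all control mice, but SAH mice 3 and 4 stood far above SAH mice 1 and 2. Control mice had a mean of 10.2 ± 0.988 CPM (SD, n = 6), and SAH mice one of 17.6 ± 4.63 CPM (SD, n = 4). The log2 fold change was 0.78 (SE 0.14, adjusted p = 0.00961). SAH mice 3 and 4 are also the SAH mice with high choroid plexus markers. With the score of these markers as a covariate the log2 fold change of Fcgr3 was 0.58 and its adjusted p 0.135, so that it was no longer called. It was called in the other 18 alternative settings (lowest adjusted p = 2.14e-05).

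Fcgr1, the high-affinity IgG receptor, was past the threshold by a small margin. It had 106, 76, 62 and 135 counts in SAH mice 1 to 4, 75, 61 and 56 counts in Sham mice 5 to 7 and 68, 51 and 65 counts in Naive mice 8 to 10. In CPM, SAH mice 1 and 4 (5.13 and 5.40) stood apart from all others, SAH mouse 3 (3.13) was just above the highest control mouse, Sham mouse 5 (3.10), and SAH mouse 2 (2.80) lay inside the control range. Its log2 fold change of 0.67 (SE 0.19) had an adjusted p of 0.086. The direction was kept in all 19 alternative settings, with adjusted p-values from 0.023 to 0.32, and the call was lost in 10. Among these 10, leaving out any 1 of SAH mice 1 and 4, Sham mice 6 and 7 and Naive mice 8, 9 and 10 lost it (adjusted p from 0.135 to 0.245).

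Fcgr4, an activating receptor of mouse myeloid cells, was close to the limit of counting. It had 15, 6, 14 and 22 counts in SAH mice 1 to 4, 8, 3 and 6 counts in Sham mice 5 to 7 and 3, 3 and 2 counts in Naive mice 8 to 10. SAH mice 1, 3 and 4 were above all control mice and SAH mouse 2 was not. It did not pass the filter in SAH against control. Without any filter its log2 fold change was 1.83 (SE 0.43, adjusted p = 0.037), and without SAH mouse 2, the SAH mouse inside the control range, it was 2.14 (adjusted p = 0.00748). In that fit it passed the filter only through the high counts of SAH mice 1, 3 and 4, so that call is not independent of its level there.

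Fcer1g, the γ chain that the activating receptors need for their signal, did not pass the threshold. SAH mice 1 to 4 had 10.8, 7.91, 9.30 and 10.8 CPM, Sham mice 5 to 7 had 7.10, 9.04 and 8.33 CPM, and Naive mice 8 to 10 had 6.96, 6.89 and 9.38 CPM. The groups overlapped, and Naive mouse 10 lay above SAH mice 2 and 3. The log2 fold change was 0.28 (SE 0.12, unadjusted p = 0.0338 and adjusted p = 0.248 from edgeR).

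Within a mouse, the receptors can be set against each other per exon length (CPM per kb of exon). The sum of Fcgr1, Fcgr3 and Fcgr4 over Fcgr2b was 3.68, 4.32, 4.34 and 4.71 in SAH mice 1 to 4, 5.75, 6.99 and 4.45 in Sham mice 5 to 7 and 5.65, 5.69 and 5.43 in Naive mice 8 to 10. Sham mouse 7 alone among the controls lay within the SAH range. The 4 SAH mice had a mean of 4.26 ± 0.426 (SD) and the 6 control mice one of 5.66 ± 0.811 (SD). Fcgr2b made up 17.5% to 21.3% of the 4 IgG receptors in SAH and 12.5% to 18.4% in control mice. The level of Fcer1g over the sum of the 3 activating receptors was 1.01 ± 0.21 in the 4 SAH mice and 1.39 ± 0.117 in the 6 control mice (mean and SD), with SAH mouse 1 (1.24) above Sham mouse 5 (1.21). No test was run on these ratios.

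**Figure D2:**
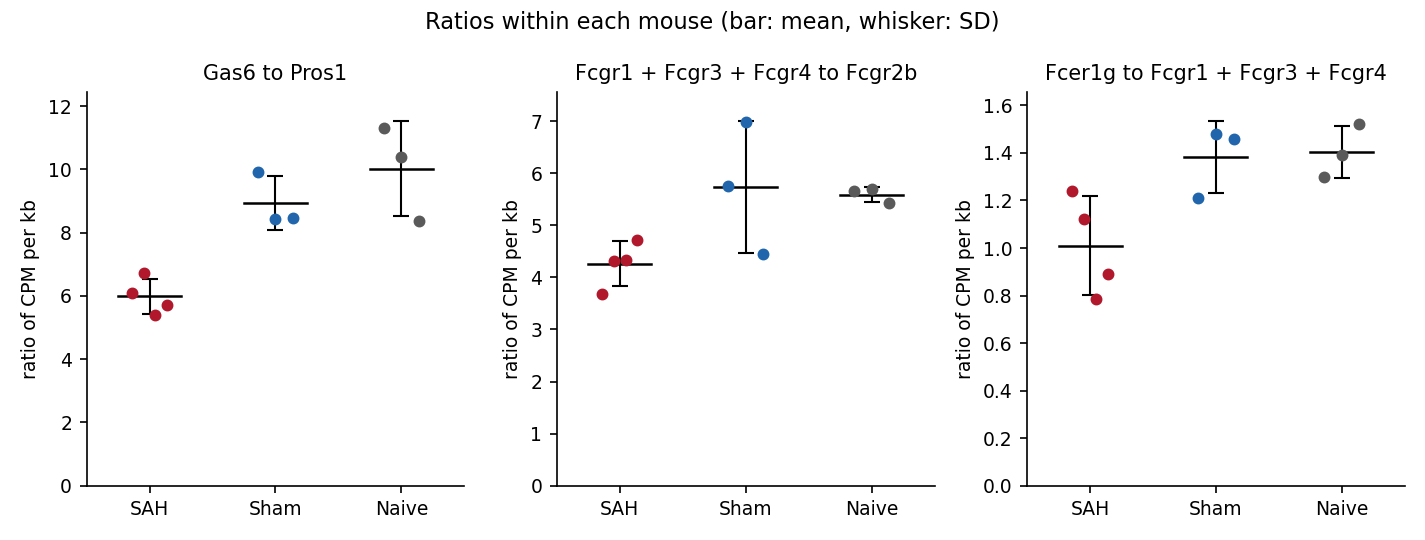
Ratios of CPM per kb of exon within each mouse (vertical axes, from 0) by group; points are mice, bars are means and whiskers are SDs. The Gas6 to Pros1 ratio separates SAH (5.41 to 6.71) from control mice (8.36 to 11.3), while the other 2 ratios overlap in 1 mouse of the control (Sham mouse 7 in the middle, Sham mouse 5 on the right).

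Pros1, the bridge between TAM receptors and phosphatidylserine that also circulates as protein S, rose. SAH mice 1 to 4 had 17.7, 15.3, 21.7 and 17.6 CPM, Sham mice 5 to 7 had 10.7, 12.2 and 11.7 CPM, and Naive mice 8 to 10 had 10.1, 10.3 and 12.3 CPM. There was a gap between the lowest SAH mouse and the highest control mouse. SAH mice had a mean of 18.1 ± 2.65 CPM (SD, n = 4), and control mice one of 11.2 ± 0.977 CPM (SD, n = 6). The log2 fold change was 0.68 (SE 0.095, adjusted p = 0.00317), and Pros1 was called higher in all 19 alternative settings.

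Gas6, the other bridge, was the most abundant of the 10 genes per exon length and was not called. SAH mice 1 to 4 had 85.3, 81.5, 93.1 and 80.0 CPM, Sham mice 5 to 7 had 84.4, 81.6 and 78.2 CPM, and Naive mice 8 to 10 had 90.3, 84.8 and 81.6 CPM. The groups overlapped throughout, and the log2 fold change was 0.02 (SE 0.051, adjusted p = 0.84). The ratio of Gas6 to Pros1 per exon length was 6.09, 6.71, 5.41 and 5.72 in SAH mice 1 to 4, against 8.36 to 11.3 in the 6 control mice. The mean ratio was 5.99 ± 0.559 for the 4 SAH mice and 9.48 ± 1.24 for the 6 control mice (SD), without overlap.

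Mertk, the receptor for both bridges, had 32.3, 30.3, 54.7 and 43.6 CPM in SAH mice 1 to 4, 29.2, 30.9 and 30.7 CPM in Sham mice 5 to 7 and 37.0, 30.6 and 34.4 CPM in Naive mice 8 to 10. SAH mice 3 and 4, those with high choroid plexus markers, were above all control mice, and SAH mice 1 and 2 lay within the control range. The log2 fold change was 0.32 (SE 0.14, unadjusted p = 0.0354 and adjusted p = 0.251), and in the fit that holds the choroid plexus score it was 0.16 (SE 0.159, adjusted p = 0.938). Leaving out SAH mouse 2 brought it past the threshold, at 0.44 (adjusted p = 0.0786). Of the other TAM receptors, Axl rose by 0.20 on the log2 scale (SE 0.048, adjusted p = 0.0436), and its lowest SAH mouse (61.6 CPM) exceeded its highest control mouse (58.9 CPM). For Tyro3, the TAM receptor of neurons, it was -0.12 (adjusted p = 0.346).

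Cd36, a scavenger and fatty acid receptor of macrophages and endothelium, had 36, 54, 30 and 42 counts in SAH mice 1 to 4, 30, 40 and 43 counts in Sham mice 5 to 7 and 38, 42 and 30 counts in Naive mice 8 to 10. The groups overlapped, and the highest level of all, 2.16 CPM, was in Naive mouse 9. The log2 fold change was 0.17 (SE 0.18, adjusted p = 0.651).

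Msr1, the class A scavenger receptor of macrophages, was the least abundant gene. It had 12, 9, 7 and 10 counts in SAH mice 1 to 4, 2, 1 and 12 counts in Sham mice 5 to 7 and 6, 1 and 3 counts in Naive mice 8 to 10. Sham mouse 7, the control mouse with high choroid plexus markers, lay inside the SAH range, and the other 5 control mice lay below all SAH mice in CPM. Without a filter the log2 fold change was 1.24 (SE 0.51, adjusted p = 0.259), not past the threshold.

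In control mice the order of the levels per exon length was Gas6 (32.2 CPM per kb), Fcer1g (12.1), Mertk (9.04), Fcgr3 (7.52), Pros1 (3.43), Fcgr2b (1.55), Fcgr1 (1.00), Cd36 (0.395), Fcgr4 (0.138) and Msr1 (0.042). Mertk and Fcgr3 overlapped over the 6 control mice, as did Fcgr4 and Msr1, and every other pair of neighbours was apart. In SAH mice Gas6 again led (32.8 CPM per kb), and Fcer1g (14.7), Fcgr3 (12.98) and Mertk (11.3) followed, with Fcgr3 overlapping both of the others. Fcgr4 (0.507) and Cd36 (0.441) overlapped in SAH, whereas in control mice Cd36 lay above Fcgr4 without overlap.

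**Figure D3:**
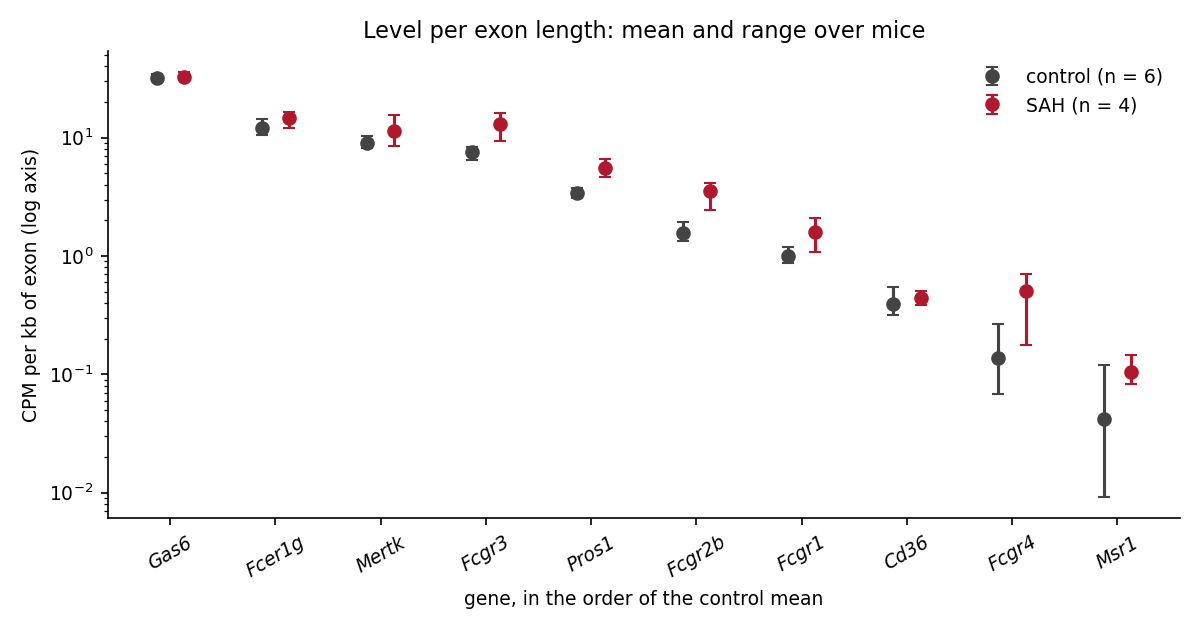
Level per exon length of the 10 genes (vertical axis: CPM per kb of exon, log axis) in control (grey, n = 6) and SAH mice (red, n = 4), in the order of the control mean; points are means and bars run from the lowest to the highest mouse. The ranges of Pros1, Fcgr2b and Fcgr3 do not meet between the groups, and Msr1 and Fcgr4 are the lowest in control mice.

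The control was then split. The comparisons with Sham and with Naive mice come from 1 fit of the 3 groups and share the 4 SAH mice, so they are not independent of each other. Against Sham, which tests hemorrhage over the operation, 9 genes passed the filter, and Fcgr2b (log2 fold change 1.13, SE 0.20, adjusted p = 0.0471) and Pros1 (0.64, SE 0.12, adjusted p = 0.0492) rose. These are 2 of 9, with 0.529% of all 15134 genes tested called higher. For Fcgr3 it was 0.73 (SE 0.18, adjusted p = 0.113), with every SAH mouse above every Sham mouse, and for Fcgr1 0.70 (adjusted p = 0.329). Fcgr3 was called against Sham in 4 of 17 alternative settings, among them the edgeR fit without a filter (adjusted p = 0.0709). The calls of Fcgr2b and Pros1 against Sham were lost when SAH mouse 4 or any 1 of the 3 Sham mice was left out, with adjusted p-values from 0.115 to 0.205 for Fcgr2b and from 0.126 to 0.233 for Pros1, and when only the SAH and Sham mice were fitted (0.144 for both).

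Against Naive mice, Fcgr2b (log2 fold change 1.22, adjusted p = 0.0107), Fcgr3 (0.84, adjusted p = 0.0347), Fcgr4 (2.38, SE 0.58, adjusted p = 0.065) and Pros1 (0.72, adjusted p = 0.00982) rose, 4 of 9 genes tested, with 2.03% of all genes tested called higher. Of the 7 choroid plexus markers, 2 were called higher in the same comparison, Ttr (log2 fold change 4.30, adjusted p = 0.0874) and Kcnj13 (3.64, adjusted p = 0.0363), and every SAH mouse exceeded every Naive mouse in their sum (lowest 102 CPM in SAH, 44.2 to 67.5 CPM in Naive mice). Their part in these 4 calls was not tested. Fcgr4 passed the filter in this fit through SAH mice 1, 3 and 4 only, so its count among the calls is not independent of its high level there. It lost its call when any 1 of the Naive mice was left out (adjusted p from 0.19 to 0.262). Fcgr3 lost its call without Naive mouse 8 (0.177) or 9 (0.187). Sham against Naive gave 0 calls among 9 genes, with every adjusted p at 1.0 and 0 genes at an unadjusted p under 0.05, and DESeq2 also called 0. Over all genes tested in that comparison 0.00661% were called higher.

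**Figure D4:**
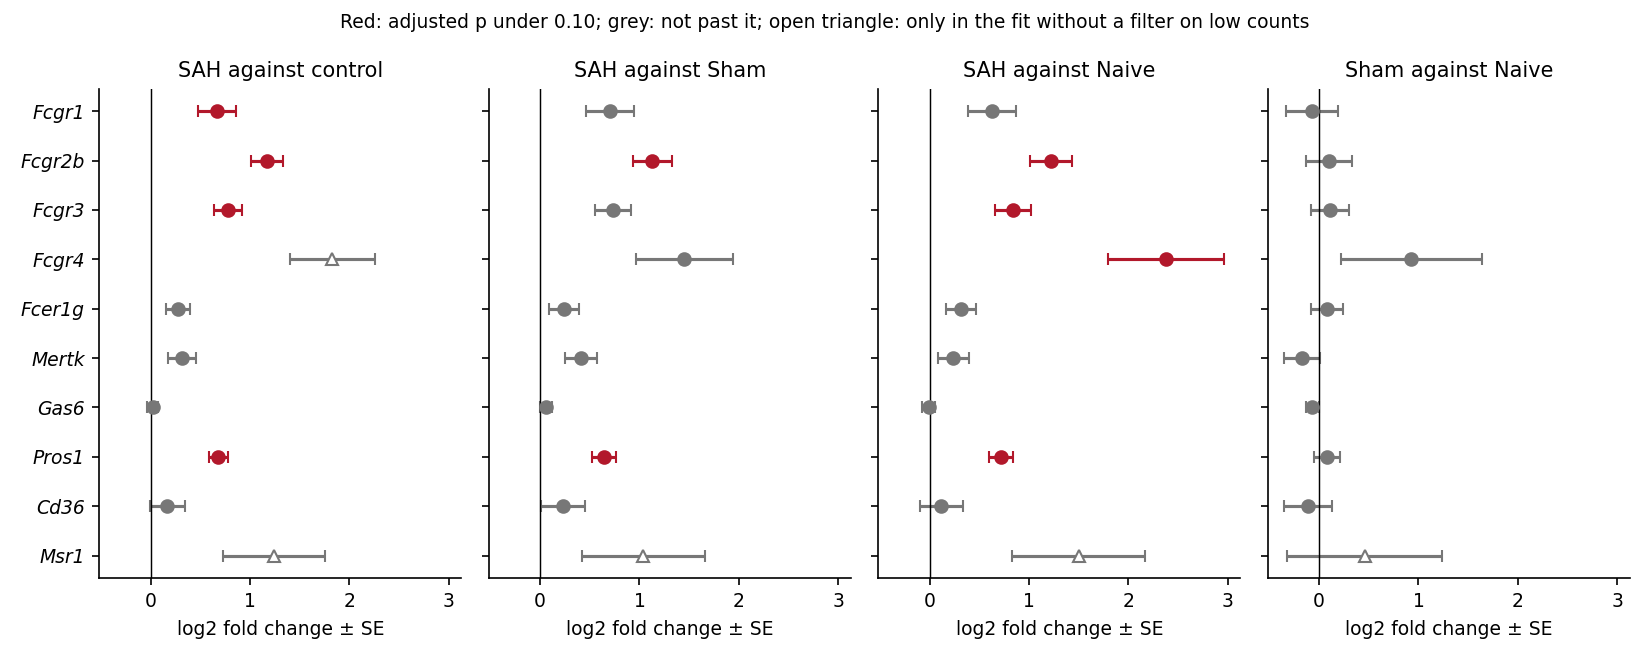
Log2 fold change with its SE (horizontal axes) of the 10 genes in the 4 comparisons; red circles passed an adjusted p of 0.10 in edgeR, grey circles did not, and open triangles are values from the fit without a filter for genes that did not pass it. Fcgr2b and Pros1 are red in the 3 comparisons with SAH, and Sham against Naive has no red point.

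Other genes of the same pathways were read from lists in SAH against control, where 3.13% of all genes tested were called higher. Of 11 other Fc receptor genes 5 were tested and 2 rose: Trim21, which binds IgG inside cells (log2 fold change 0.61, adjusted p = 0.0858), and Fcgrt, the neonatal Fc receptor that recycles IgG (0.35, adjusted p = 0.0374), with a median of 0.35. Of 17 tested genes of signalling downstream of Fc receptors 4 rose, Cybb (the catalytic subunit of the phagocyte oxidase, 1.54, SE 0.32, adjusted p = 0.0201), Dock2 (0.44, adjusted p = 0.0808), Inpp5d (the phosphatase SHIP1, which Fcgr2b recruits, 0.38, adjusted p = 0.0526) and Tyrobp, the adaptor related to Fcer1g (0.33, adjusted p = 0.0716), with a median of 0.33. Each median is set against -0.0024 over all genes tested. Beside Fcer1g, with 0.28, Tyrobp had a mean of 16.5 ± 2.22 CPM in the 4 SAH mice and 13.1 ± 0.926 CPM in the 6 control mice (SD), and 1 of the 4 SAH mice, mouse 2, lay within its control range.

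Against the same 3.13% of all genes called higher, 3 of 17 tested genes of apoptotic cell uptake rose (Axl, the lipid receptor Trem2 with 0.35 and the integrin subunit Itgb5 with 0.28), and the median was -0.03. Scavenger receptors had the highest median, 0.83, and 7 of 15 tested genes rose. The 4 with the largest changes were Cd163, the receptor for hemoglobin bound to haptoglobin (1.51, SE 0.24, adjusted p = 0.00561), the mannose receptor Mrc1 (1.06, SE 0.19, adjusted p = 0.00929), Colec12 (1.00, SE 0.15, adjusted p = 0.00443) and Scarf1 (0.92, SE 0.21, adjusted p = 0.0322). Cd36 and Msr1 were not in this list. In the same fit Cd36 had 0.17 and was not called. Msr1 did not pass the filter and so could not be called, and without a filter it had 1.24 (adjusted p = 0.259 from edgeR). Of 16 tested genes of lipid handling 0 rose and 1, Fabp7, a fatty acid binding protein of radial glia and astrocytes, fell by 0.59 on the log2 scale (adjusted p = 0.0687). When each mouse was left out in turn, Cybb, Axl, Cd163, Mrc1 and Colec12 were called in all 10 fits, Fcgrt, Itgb5 and Scarf1 lost their calls without SAH mouse 4 only, Inpp5d, Tyrobp, Trem2 and Fabp7 lost theirs in 6 of 10 fits, and Trim21 and Dock2 in 8 of 10. In the fit that holds the choroid plexus score, where 0.84% of all genes tested were called higher, Cd163, Mrc1 and Colec12 stayed called, but Cybb (log2 fold change 1.48, SE 0.378, adjusted p = 0.121) and Axl (0.19, SE 0.0578, adjusted p = 0.282) did not, with folds close to those without the score. In that fit 0 genes of Fc receptor signalling, 0 of apoptotic cell uptake, 1 other Fc receptor and 4 scavenger receptors were called higher. Of the other named genes that lost their calls, Trem2 (0.33), Tyrobp (0.30) and Dock2 (0.41) also had folds close to those without the score. Folds were smaller for Itgb5 (0.21), Inpp5d (0.27), Scarf1 (0.70), Trim21 (0.36) and Fabp7 (-0.37).

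Markers of cell types that carry these receptors were read in the same mice. The 10 markers of homeostatic microglia summed to 441 to 546 CPM in SAH and 416 to 465 CPM in control mice, and 2 of 10 rose, with a median log2 fold change of 0.05. The sum holds none of the 10 receptor and ligand genes. As a ratio to it, in percent, Fcgr2b was 0.852% to 1.46% in SAH and 0.463% to 0.649% in control mice, Fcgr3 2.84% to 4.97% and 2.09% to 2.54%, and Pros1 3.23% to 4.92% and 2.39% to 2.78%. SAH and control mice did not overlap in these 3 ratios, while they did for the other 7 genes. The same 3 genes were apart in CPM, which held for 2.83% of all genes tested. The share of all genes apart in this ratio was not computed, so its count of 3 has no background. With the score of these markers as a covariate, 4 of the 10 genes were called higher, as without it, but 5.86% of all genes tested were then called higher, against 3.13% without it.

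Markers of border-associated macrophages moved with SAH. They summed to 26.0, 20.3, 22.2 and 23.9 CPM in SAH mice 1 to 4, 10.9, 12.2 and 13.1 CPM in Sham mice 5 to 7 and 7.07, 8.48 and 7.39 CPM in Naive mice 8 to 10, and 7 of 9 rose (median 1.44), with 3.13% of all genes tested called higher. In the fit that holds the choroid plexus score 3 of the 9 were called higher (0.84% of all genes). In fits without that score, leaving out Naive mouse 8 or Naive mouse 9 gave 4 of the 9. Those fits called 271 of 14931 and 320 of 14991 genes higher. Every Sham mouse was above every Naive mouse in this sum, but 0 of the 9 markers were called in Sham against Naive (0.00661% of all genes called higher). Mrc1 and Cd163 stand both in this list and among the scavenger receptors. Meningeal fibroblast markers (5 of 6 rose, 93.8 to 178 CPM in SAH and 87.3 to 120 CPM in control) and endothelial markers (3 of 7 rose, 132 to 253 and 115 to 158 CPM) moved in the same direction, and 0 of 7 choroid plexus markers were called in SAH against control. None of the markers in these 5 lists was at 0 in all mice. Beyond the covariate fits for microglia and choroid plexus, their part in the levels of the receptor genes was not tested.

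Of the blood cells that carry Fc receptors, markers of neutrophils, B cells, NK and T cells and mast cells were near the limit of counting. Neutrophil markers summed to 0.441 to 1.26 CPM in SAH and 0.0752 to 1.21 CPM in control mice, B cell markers to 0.32 to 0.435 and 0.206 to 0.594 CPM, NK and T cell markers to 0.0736 to 0.242 and 0.00 to 0.165 CPM, and mast cell markers to 0.11 to 0.32 and 0.0752 to 0.282 CPM. No gene of these 4 lists passed the filter. Monocyte markers summed to 74.7 to 113 CPM in SAH and 44.5 to 75.7 CPM in control mice, and both tested genes, Fn1 and S100a4, rose. Fn1 made up most of that sum (87.2 ± 16.9 CPM in SAH, SD, n = 4), and it is also a gene of vessels and fibroblasts. In the fit that holds the choroid plexus score neither was called. Ccr2, the chemokine receptor of inflammatory monocytes, had 32, 24, 2 and 17 counts in SAH mice 1 to 4 and 1 to 6 counts in the 6 control mice. SAH mouse 3 lay inside the control range and the other 3 SAH mice were above it. Ccr2 did not pass the filter in SAH against control, and in the fit of 3 groups its log2 fold change was 2.32 against Sham (adjusted p = 0.217) and 2.60 against Naive mice (adjusted p = 0.103). Ly6c2, another monocyte marker, had 2 to 5 counts in SAH and 0 to 1 in control mice. Their part in the levels of the receptor genes was not tested. Dendritic cell markers (6.97 to 8.70 and 7.26 to 9.29 CPM) and astrocyte markers (1520 to 1670 and 1430 to 1610 CPM, 0 of 6 called) overlapped between the groups. Flt3, the only dendritic cell gene tested, made up most of its sum (6.77 to 8.20 CPM in SAH mice). Of 5 red blood cell genes 4 were at 0 in all mice, and their sum was 1.06 to 3.68 CPM in SAH and 1.32 to 2.57 CPM in control mice.

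**Figure D5:**
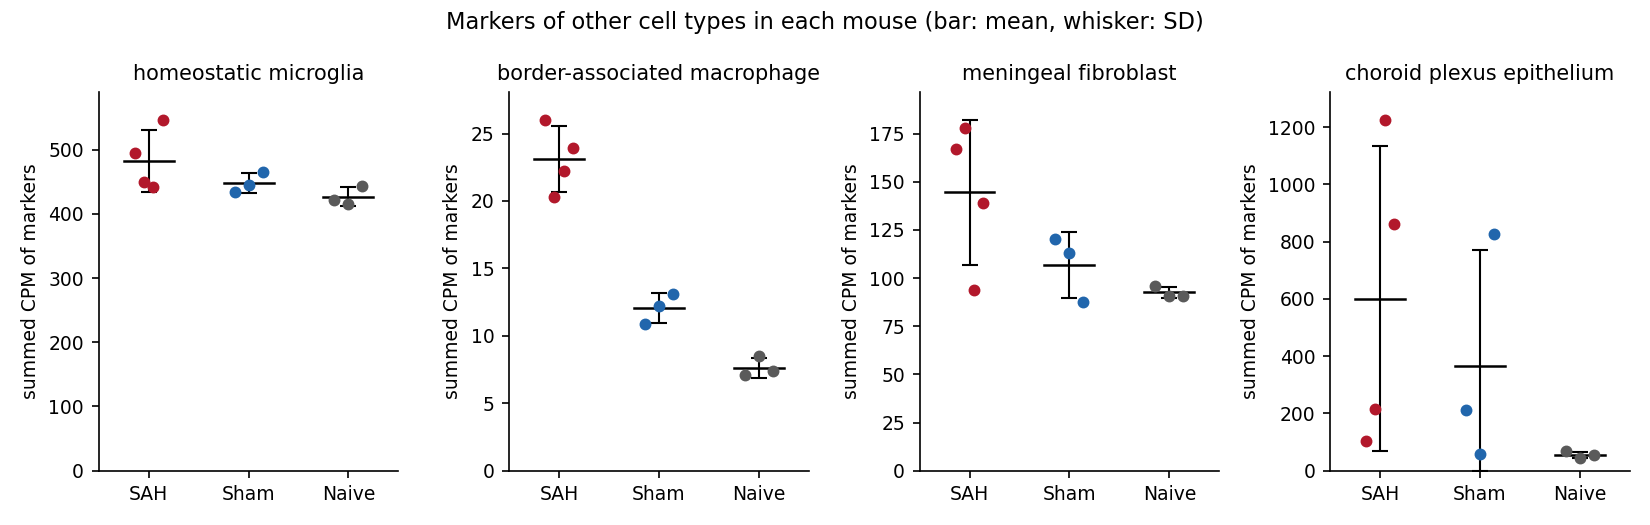
Summed CPM of marker genes (vertical axes, from 0) of 4 cell types in each mouse, by group; points are mice, bars are means and whiskers are SDs, cut at 0 where they would pass below it. Border-associated macrophage markers separate SAH (20.3 to 26.0 CPM), Sham (10.9 to 13.1 CPM) and Naive mice (7.07 to 8.48 CPM), while choroid plexus markers are high in SAH mouse 3, SAH mouse 4 and Sham mouse 7.

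The genes whose log2 CPM followed a receptor or ligand most closely over the 10 mice were ranked among 13813 genes by Pearson's r, as a description; the 10 mice share the groups, so a gene that moves with SAH ranks high. For Fcgr3 they were H2-Q4 (r = 0.982), C1qc, a chain of complement C1q made by microglia (0.982), and Ctsz, a lysosomal protease (0.98). Pros1 was followed by the ephrin Efna1 (0.991), the complement receptor C3ar1 (0.978) and H2-Q4 (0.973). Fcgr1 was nearest to Herc6, an interferon-induced gene (0.943), Fcer1g to the inhibitory receptor Lair1 (0.944), Mertk to Col11a2 (0.966), Gas6 to Sertad1 (0.938) and Cd36 to Lats2 (0.937).

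By position (mm9), Fcgr2b (chr1:172890689-172906202), Fcgr4 (chr1:172949057-172959892), Fcgr3 (chr1:172981300-172989534) and Fcer1g (chr1:173159703-173164480) lie together on chromosome 1. Of the 19 other genes within 100 kb of this cluster 15 were tested, 0 were called higher and 1, the protease gene Adamts4, fell by 0.93 on the log2 scale (adjusted p = 0.00803). The remaining genes lie alone: Fcgr1 (chr3:96086832-96097892), Mertk (chr2:128524733-128627924), Gas6 (chr8:13465374-13494535), Msr1 (chr8:40667054-40728032), Cd36 (chr5:17287508-17394777) and Pros1 (chr16:62854160-62929166).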

How the data were processed

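Total RNA depleted of ribosomal RNA was sequenced as stranded 50-base read pairs from samples with an RNA integrity number above 9. The authors aligned read pairs to mm9 with STAR and made the deposited counts with featureCounts 1.6.2 (reverse strand, UCSC gene names), discarding pairs that aligned to several places or genes. The deposited values are raw counts of read pairs per gene name. Counting was not repeated.

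The rest was computed from the counts: edgeR 4.0.16 (R 4.3.3) with TMM, filterByExpr (minimum count 10, total 15), quasi-likelihood tests and Benjamini-Hochberg adjustment over all genes tested, at 0.10, on 19743388 to 27254655 counts per mouse. SE is the absolute log2 fold change over the square root of F. SAH against control was a fit of 2 groups, and the other comparisons 1 fit of 3. In simulated counts with 200 genes changed 2-fold among 14911, edgeR called 194 genes in SAH against control, 179 of them changed ones, so 7.73% of calls were false. In SAH against Sham 11.4% were false, above the threshold, and with DESeq2 18.7% and 17.6% in these comparisons. Each share comes from a single draw in which genes vary independently of each other. Variation shared by many genes, as among the choroid plexus markers, was not simulated.

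Alternatives were DESeq2 1.42.0, RLE factors, no filter, a minimum of 10 counts per mouse, a threshold of 0.05, a robust fit, other groupings of the same mice, marker scores as covariates and each mouse left out. Each library is a separate mouse. No pathway list was tested as a set. Named were all 10 genes, up to 4 called genes of each pathway list with the largest changes, Axl, Tyro3, Tyrobp, the 3 genes most like each tested gene (mean of at least 1 CPM; some only by the nearest, and those of Fcgr2b are not reported here) and called genes within 100 kb of the chromosome 1 cluster; the naming of Fn1, S100a4, Ccr2, Ly6c2, Ttr and Kcnj13 followed a look at their values. The genes and lists were chosen with earlier results of these data known.

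Sequences were read from the mm9 genome, in which 101 of 108 exons of the 10 genes had both ends in the annotation. Promoters of Fcgr1, Fcgr2b, Fcgr3, Fcgr4, Fcer1g and Gas6 were identical to a RefSeq promoter sequence (GRCm38.p6).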

Additional observations from a re-analysis of the deposited data

Results flagged for a closer look

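Of 90 groups of 4 to 6 mice looked at over 45 values, 3 had a mouse whose gap to the nearest other mouse was large against the whole range of its group, and chance alone flags about 1 in 20 such groups. Sham mouse 7 had the highest Trim21 level of the control mice, 2.66 CPM, with a gap of 0.671 of the range. Sham mouse 7 was also the highest control mouse in summed choroid plexus markers, at 827 CPM, with a gap of 0.787 of the range. Naive mouse 8 had the highest Mertk to Axl ratio of the control mice, 1.02 in CPM per kb, with a gap of 0.63 of the range. Without Sham mouse 7, 3 of the 10 genes were called higher in SAH against control, and Fcgr1 was not among them (adjusted p = 0.135).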

How the results depend on the processing

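The 10 genes gave 598 values over the alternatives of the 4 comparisons, of which 552 kept both direction and side of the threshold, 28 lost the call, 7 gained one and 11, all from genes not past the threshold, changed sign. The sign changes came from leaving out 1 mouse, and the log2 fold changes then ranged as follows. In SAH against control Gas6 lay from -0.0204 to 0.0515. In SAH against Naive Gas6 lay from -0.056 to 0.0299 and Cd36 from -0.0295 to 0.3607. In Sham against Naive Fcgr1 lay from -0.234 to 0.0141, Fcer1g from -0.0068 to 0.2374, Fcgr2b from -0.0643 to 0.2205 and Cd36 from -0.2587 to 0.1289.

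In SAH against control 470 genes were called higher and 231 lower. The counts were 632 and 398 with DESeq2, 277 and 92 at a threshold of 0.05, 879 and 759 with the microglia score as a covariate and 126 and 44 with the choroid plexus score, which left 2 of the 10 genes called (Fcgr2b and Pros1). Leaving out each mouse gave 223 to 686 higher, 85 to 407 lower and 3 to 6 of the 10 genes. Against Sham 80 and 29 were called. DESeq2 gave 225 and 77, no filter 134 and 48, the 0.05 threshold 41 and 8, the robust fit 16 lower, and the 2 groups alone 12 and 0 with 0 of the 10 genes. Leaving out each mouse gave 6 to 166 higher, 0 to 55 lower and 0 to 4 of the 10 genes. Against Naive 307 and 146 were called, 467 and 277 with DESeq2, 186 and 74 at 0.05, and 201 and 81 from the 2 groups alone. Leaving out each mouse gave 87 to 443, 22 to 240 and 2 to 5 of the 10 genes. Sham against Naive gave 1 and 0, 2 higher with DESeq2, 2 and 1 from the 2 groups alone, and 0 to 1 higher leaving out each mouse. Among the lists, SAH against control without 1 mouse gave 4 to 8 scavenger receptors, 1 to 6 genes of Fc receptor signalling, 1 to 4 of apoptotic cell uptake, 0 to 2 other Fc receptors and 4 to 7 markers of border-associated macrophages called higher; with choroid plexus as a covariate these were 4, 0, 0, 1 and 3. Causes were not tested.

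No paired analysis was possible because the groups share no mouse numbers. Fcgr4 and Msr1 rest on the fewest counts of the 10 genes, 1 to 22 per mouse.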
